A study of Mus musculus with 6 samples.

Results

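The genes described here are 43 genes of DNA replication and of the entry into S phase, taken as a list of symbols of that pathway. They were matched to the deposited gene counts through the symbols in the authors' deposited table for 37 genes and through a reference table of gene names for the other 6 (Orc1, Orc6, Gins3, Rfc3, Chaf1b and Ccne1). All 43 had a count in at least 1 library, among 16909 genes with a count of 57010 listed. The libraries came from MLE-12 cells, an immortalised mouse lung epithelial line, wild type per the labels, and hold poly(A)-selected RNA. In the I/R + Dex group, 3 cultures received 10 µM dexmedetomidine, a sedative that activates alpha-2 adrenergic receptors, for 12 h, then 12 h in 1% oxygen and 4 h in 21% oxygen. In the I/R group, 3 cultures had the same hypoxia and reoxygenation, a culture model of ischaemia and reperfusion of the lung, without the drug. Cells kept in normal oxygen were not analysed here, so the effect of hypoxia itself on these genes was not measured, and MLE-12 stands for 1 immortalised line.

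Before S phase, the origin recognition complex, Cdc6 and Cdt1 load the ring of Mcm2 to Mcm7 onto DNA, and Cdc45 and the GINS complex turn that ring into the working helicase. The polymerases then copy both strands behind it, with Pcna as the sliding clamp, the Rfc complex as its loader, Rpa on the exposed single strands, and Fen1 and Lig1 joining the pieces of the lagging strand. Many of these genes are switched on at the boundary of G1 and S by E2F factors. In the general scheme, cyclin E and its kinase, among others, release the factors from the retinoblastoma protein. The transcripts of these genes are widely used as a sign of cycling cells. Whether this control operates in MLE-12, an immortalised line, was not tested.

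Total counts per library lay between 2333546 and 2941989, so that 0 counts in a library left room for 1.02 to 1.29 CPM, counts scaled to the library total, with 3 counts as the floor. The 6 libraries had 35 to 39 of the 43 genes with a count. Of 7 markers of epithelium, 3 (Krt8, Krt18 and Cldn7) had 0 counts in all libraries. So had 6 of 8 markers of alveolar type II cells (Sftpa1, Sftpb, Sftpc, Sftpd, Nkx2-1 and Slc34a2). The type II marker Abca3 had 45, 9 and 28 counts in I/R + Dex and 40, 17 and 41 in I/R. Epcam had 16 counts over all libraries, and Krt19, Cdh1, Ocln and Lamp3 had 2 to 4 each. The labelled cell type was thus not borne out by most of its defining markers. Summed over each list, epithelial markers had 0 to 2.32 CPM in I/R + Dex libraries and 1.53 to 2.72 CPM in I/R libraries, and type II markers had 3.86 to 17.4 CPM in I/R + Dex and 5.78 to 16.1 CPM in I/R. Fibroblast markers, none of 7 at 0 throughout, summed to 76.4 to 96.7 CPM in I/R + Dex and 67.0 to 98.5 CPM in I/R. Leukocyte markers, none of 6 at 0 throughout, summed to 55.4 to 67.3 CPM in I/R + Dex and 44.2 to 54.8 CPM in I/R, and endothelial markers, with Tek at 0 among 5, to 5.78 to 10.3 CPM in I/R + Dex and 1.53 to 5.75 CPM in I/R. These last 2 sums did not overlap between the groups, as 9.32% of all tested genes did not. The closest libraries stood at 55.4 against 54.8 CPM for leukocyte markers and 5.78 against 5.75 CPM for endothelial markers. The endothelial sums rest on few counts, with 46 over all libraries for Pecam1, the highest of them. The part of both sums in the results on the replication genes was not tested.

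Stretches of 3 helicase promoters are shown because they hold letters that E2F factors bind. The search used TTTCGCGC, TTTGGCGC, TTTCCCGC and TTTGCCGC on both strands in a window of 250 bases before to 50 after each start in RefSeq (GRCm38.p6), and capitals mark the matches. The Mcm6 stretch is chr1:128359736-128359835 on the minus strand, the Mcm5 stretch chr8:75109329-75109388 on the plus strand and the Mcm7 stretch chr5:138172014-138172073 on the minus strand.
Mcm6: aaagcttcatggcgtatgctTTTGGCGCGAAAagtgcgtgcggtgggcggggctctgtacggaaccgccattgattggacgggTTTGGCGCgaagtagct
Mcm5: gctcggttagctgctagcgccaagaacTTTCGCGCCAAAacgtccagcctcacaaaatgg
Mcm7: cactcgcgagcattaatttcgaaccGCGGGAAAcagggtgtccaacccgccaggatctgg
In Mcm6 and Mcm5, matches on the opposite strands overlap within the first run of capitals. Of 35 members in the RefSeq promoter table, 13 (37.1%) had at least 1 match, as had 704 of all 27025 genes in it (2.60%). The 13 were Mcm3, Mcm5, Mcm6, Mcm7, Orc1, Cdc6, Cdt1, Gins3, Pola1, Pold1, Rfc3, Lig1 and Uhrf1. They ranged from Mcm6, the member with the highest mean FPKM, to Gins3, the one with the lowest. A match is a string of letters and not a bound site.

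None of the 43 genes passed the test between I/R + Dex and I/R. The count filter of edgeR kept 29 of the 43, and 0 of the 29 had an edgeR adjusted p under 0.05, against 5 of 7412 genes tested (0.0675%). At an unadjusted p under 0.05 there was 1 member, Pcna, against 251 of all tested genes (3.39%). DESeq2 gave 0 members past the threshold of 33 with an adjusted p, where 17 of 8686 genes passed (0.196%). At an unadjusted p under 0.05 DESeq2 had 2 of the 43 members, Fen1 and Pcna, and 307 of 16882 genes (1.82%). The smallest adjusted p of a member was 0.9999 in edgeR. The log2 fold change, with I/R + Dex on top, lay above 0 for 16 members and below 0 for 13, with a median of 0.02, against a median of -0.01 over all tested genes. Summed over the 43 genes, the level was 1889 ± 31.9 CPM in I/R + Dex and 1948 ± 68.1 CPM in I/R (SD, n = 3 each), with I/R + Dex libraries at 1875, 1866 and 1925 CPM and I/R libraries at 2012, 1956 and 1876 CPM. The groups overlapped, as I/R replicate 3 lay between the I/R + Dex libraries.

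A result short of the threshold does not show that a gene stayed level, and the intervals tell how large a change the libraries could hide. The 95% interval lay within a 1.5-fold change either way for 9 of the 29 tested members and within a 2-fold change for 14. The median half-width of the interval was 0.76 on the log2 scale for members and 0.60 for all tested genes. In bulk RNA, fewer cells in S phase and less RNA of these genes per cell cannot be told apart.

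**Figure D1:**
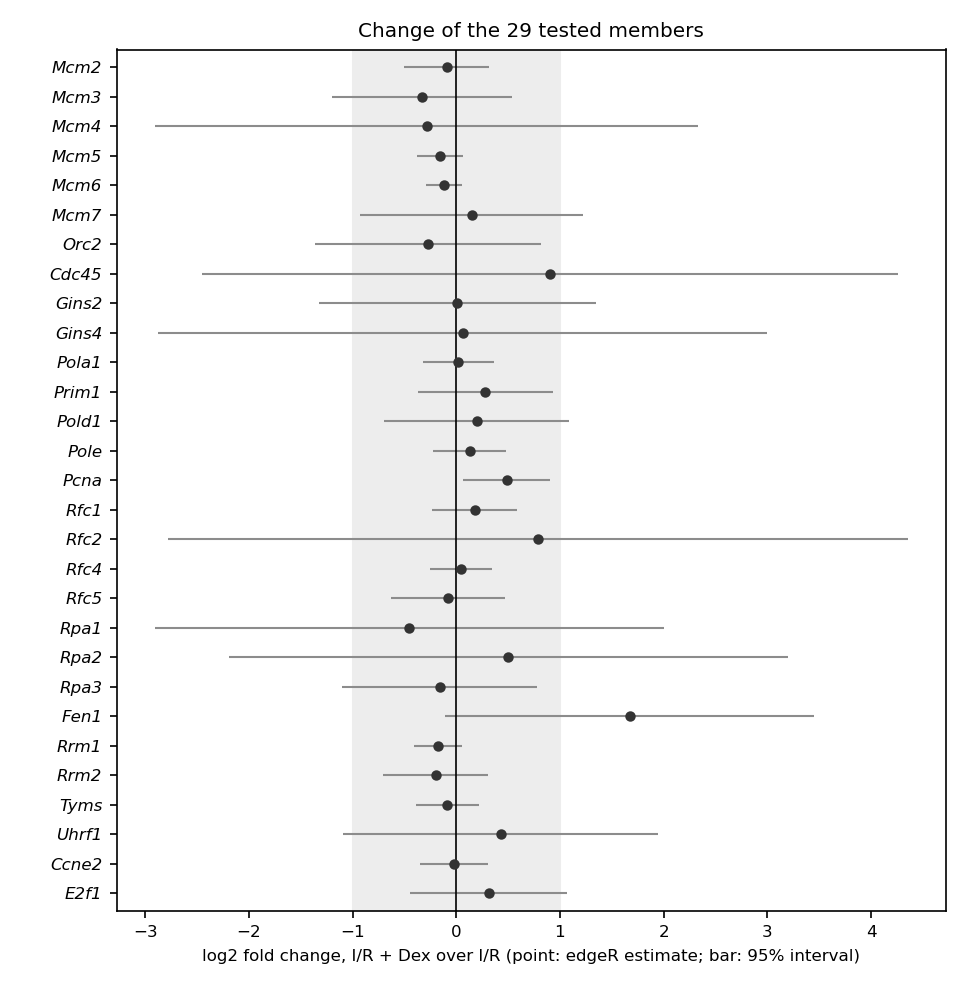
Log2 fold change (I/R + Dex on top) for the 29 tested members, in the order of their roles. Points are edgeR estimates, bars 95% intervals from 3 libraries per group, and the shaded band marks a 2-fold change either way. Mcm5, Mcm6 and Rrm1 have narrow intervals around 0, while Cdc45, Fen1, Gins4, Mcm4, Rfc2, Rpa1 and Rpa2 have intervals that reach past a 4-fold change in at least 1 direction.

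Levels differed widely among members. By mean FPKM, counts per length and library size, 8 members stood at 20 or more (Mcm2, Mcm5, Mcm6, Pcna, Rfc4, Rrm1, Tyms and Ccne2), 10 between 5 and 20, 10 between 1 and 5, and 15 under 1. The 8 members with the most counts (Mcm6, Rrm1, Tyms, Mcm2, Mcm5, Pola1, Ccne2 and Pcna) held 22514 of the 29760 counts of the list, 75.7%. The genes under 1 FPKM include the licensing factors Cdc6 and Cdt1, the GINS subunits Gins1 and Gins3, the chromatin assembly subunits Chaf1a and Chaf1b, and Ccne1. Classes and ranks by mean FPKM depend on the gene length behind it, which is not stated, and another length can change them.

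**Figure D2:**
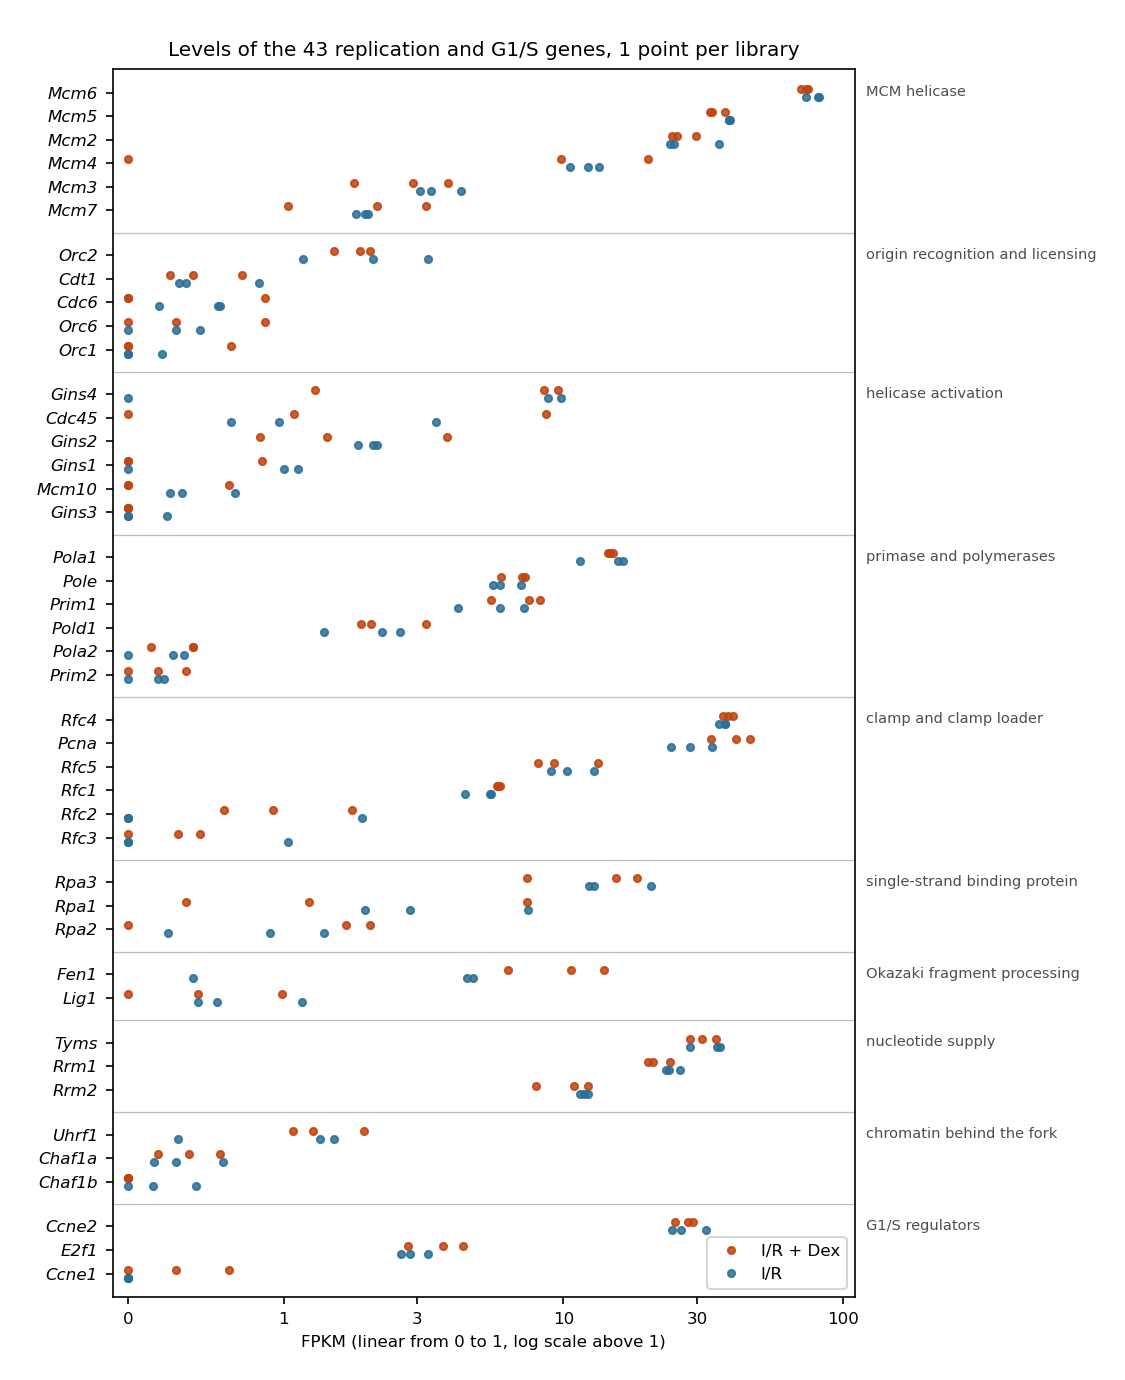
FPKM of the 43 genes in each library, grouped by role, with I/R + Dex points above I/R points for each gene. The axis is linear from 0 to 1 and logarithmic above 1. Mean levels span from 75.8 FPKM for Mcm6 to 0.04 FPKM for Gins3. By CPM the groups do not overlap for 3 of the 29 tested members (10.3%), against 9.32% of all tested genes.

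The 6 subunits of the MCM ring form a complex with 1 copy of each, yet their transcripts did not stand at like levels. Mean FPKM over the 6 libraries was 75.8 for Mcm6, 37.1 for Mcm5, 27.4 for Mcm2, 11.0 for Mcm4, 3.22 for Mcm3 and 2.04 for Mcm7. This order held in 5 of 6 libraries. The exception was I/R + Dex replicate 2, where Mcm4 was listed at 0 and stood last. The ranges over the libraries overlapped between Mcm5 and Mcm2, among Mcm4, Mcm3 and Mcm7, and between no other neighbours in the order. The place of Mcm5 above Mcm2 depends on the length behind the FPKM. By mean CPM Mcm2 stood above Mcm5, at 191 against 148. In the authors' deposited table the coding transcript of Mcm2 had means of 53.9 FPKM in I/R + Dex and 57.8 FPKM in I/R. The 2 Mcm5 transcripts had 18.9 and 26.1 FPKM in I/R + Dex, and 27.4 and 24.4 FPKM in I/R.

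Mcm6, the highest of all members with copies left out, had 331, 343 and 340 CPM in I/R + Dex and 388, 377 and 342 CPM in I/R. The groups touched at I/R replicate 3, which lay within the I/R + Dex range. Means were 338 ± 5.94 CPM in I/R + Dex and 369 ± 23.7 CPM in I/R (SD, n = 3 each), which is a log2 fold change of -0.12 (95% interval -0.30 to 0.05). Mcm5 had 153, 132 and 134 CPM in I/R + Dex and 158, 154 and 157 CPM in I/R, and the 3 I/R libraries all stood above the others. Its log2 fold change was -0.16 (95% interval -0.38 to 0.06). Groups that did not overlap were found for 3 tested members, Mcm5, Rfc1 and Fen1, which is 10.3% of the 29, and for 9.32% of all tested genes.

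Mcm2 had 179, 168 and 205 CPM in I/R + Dex and 253, 172 and 167 CPM in I/R, where replicate 1 was the highest library. Its log2 fold change of -0.09 (95% interval -0.50 to 0.32) was 0.12 without that library. Mcm7, the lowest subunit by mean FPKM, had 25, 33 and 11 counts in I/R + Dex and 23, 26 and 21 in I/R, with a log2 fold change of 0.15 (95% interval -0.93 to 1.22). Mcm3 had 38, 25 and 16 counts in I/R + Dex and 43, 37 and 30 in I/R, with overlapping groups.

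Mcm4 had 92, 0 and 172 counts in I/R + Dex and 116, 111 and 125 in I/R. The 0 in I/R + Dex replicate 2 stands beside a highest count in another library of the same group, so the estimate of -0.29 came with a 95% interval from -2.91 to 2.34. Without replicate 2 of I/R + Dex it was 0.29, and methods that average log values with the 0 gave -1.09 to -2.18, for limma trend on log2(FPKM + 1) and limma voom. For 3784 genes the counts of the 6 libraries, summed and divided by 5, came to at least 100. With 1 library at 0, that is the mean of the others. Of these genes 10 had 0 counts in a single library, and Mcm4 was the 1 such gene among the 13 members at that level. The Mcm4 counts all lay on 1 transcript, and the cause of the 0 was not tested. Mcm4 was singled out after its values were seen.

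Licensing factors were scarce. Orc2, a subunit of the origin recognition complex and the highest gene of this role, had 19, 18 and 14 counts in I/R + Dex and 12, 37 and 21 in I/R, with a log2 fold change of -0.27 (95% interval -1.36 to 0.81). Orc1, the subunit with the lowest level, had 6, 0 and 0 counts in I/R + Dex and 0, 0 and 2 in I/R. Orc6 had 2, 5 and 0 in I/R + Dex and 3, 0 and 2 in I/R. In all 3 genes the groups overlapped.

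Cdc6, which helps load the helicase, had 0, 0 and 11 counts in I/R + Dex and 8, 3 and 8 in I/R. Cdt1, its partner in loading, had 6, 3 and 2 counts in I/R + Dex and 7, 3 and 3 in I/R. Both stayed under the count filter, and most of their counts did not lie on coding transcripts. Of Cdt1, 91.7% of the counts were on transcripts that retain an intron, 20 of 24 on 1 of them. Of Cdc6, the 11 counts of I/R + Dex were on the coding transcript, while 6, 3 and 8 of the I/R counts were on a transcript marked for nonsense-mediated decay. That transcript (chromosome 11, 98798675 to 98814766 in GRCm39) had a log2 fold change of -5.49 with a p of 0.00346 and an adjusted p of 0.232 in the authors' deposited table, which lists means of 0 FPKM in I/R + Dex and 0.438 FPKM in I/R. This fold change is set against 0 in I/R + Dex and gives no size. In I/R + Dex only replicate 3 had counts of Cdc6 on any transcript.

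The genes that activate the loaded helicase were uneven between libraries of the same group. Cdc45 had 10, 70 and 0 counts in I/R + Dex and 9, 36 and 6 in I/R, and both its lowest and its highest library were I/R + Dex. Gins4, the highest gene of this role, had 30, 4 and 31 counts in I/R + Dex and 35, 0 and 31 in I/R, so that the same replicate number was low in both groups. Its mean FPKM was 6.33, against 0.04 for Gins3, which had 2 counts in I/R replicate 2 and none elsewhere.

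Gins2 had 41, 8 and 14 counts in I/R + Dex and 20, 25 and 23 in I/R, with overlapping groups. In the reference annotation 67.3% of the exon bases of Gins2 are shared with Gse1 on the other strand, and Gse1 had 117, 99 and 110 counts in I/R + Dex and 93, 143 and 109 in I/R. The sources used here do not say whether the counting used strand, so reads of the 2 genes may not be told apart. The same holds for 14 members in all that share exon bases with a gene of the opposite strand, among them Chaf1a with 52.5% of its exon bases, Orc2 with 29.8%, Ccne2 with 17.4%, Rfc2 with 15.1% and Rfc4 with 12.7%. The partner of Rfc4, Eif4a2, had 1060 to 1536 counts in I/R + Dex and 913 to 1550 in I/R. Gins1 had 0, 3 and 0 counts in I/R + Dex and 4, 5 and 0 in I/R, and Mcm10, which helps start the helicase, had 13, 0 and 0 in I/R + Dex and 14, 6 and 7 in I/R. Neither reached the count filter.

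Pola1, the catalytic subunit of the polymerase that lays down primers and the highest gene of its role, had 130, 125 and 131 CPM in I/R + Dex and 102, 143 and 138 CPM in I/R. The I/R + Dex libraries lay within the range of I/R, and the log2 fold change was 0.02 (95% interval -0.32 to 0.36). For Pole, the catalytic subunit of the leading-strand polymerase, the log2 fold change was 0.13 (95% interval -0.23 to 0.48), and its groups overlapped. Pold1, its counterpart on the lagging strand, had 41, 23 and 22 counts in I/R + Dex and 18, 32 and 33 in I/R, with a log2 fold change of 0.20 (95% interval -0.70 to 1.09).

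Prim1, the catalytic primase subunit, had 29.4, 31.3 and 21.1 CPM in I/R + Dex and 16.5, 27.9 and 23.0 CPM in I/R, with overlapping groups and a log2 fold change of 0.28 (95% interval -0.37 to 0.94). Of its counts, 99.0% were assigned to transcripts that retain an intron, and its coding transcript had 4 counts in all. Its partner Prim2, the lowest gene of the role, had 3, 5 and 0 counts in I/R + Dex and 0, 4 and 3 in I/R. Pola2 had 9, 8 and 3 counts in I/R + Dex and 8, 7 and 0 in I/R.

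Pcna had the lowest unadjusted p of the list. Its transcripts run within chromosome 2, 132091082 to 132095234, in GRCm39 on the minus strand, per the authors' deposited table. Pcna had 113, 79.7 and 98.3 CPM in I/R + Dex and 59.1, 67.6 and 81.3 CPM in I/R. I/R + Dex replicates 1 and 3 stood above all I/R libraries, while replicate 2 stood just under I/R replicate 3, so the groups overlapped. Means were 96.8 ± 16.4 CPM in I/R + Dex and 69.3 ± 11.2 CPM in I/R (SD, n = 3 each). The log2 fold change was 0.49 with a standard error of 0.18 (95% interval 0.07 to 0.90, edgeR adjusted p = 0.9999), and it lay between 0.37 and 0.62 when any 1 library was left out.

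A near-identical copy of Pcna held more counts than the gene itself. The pseudogene Pcna-ps2 on chromosome 19 had 833, 875 and 880 counts in I/R + Dex and 930, 1078 and 706 in I/R, and it held 80.6% of the counts of the gene and its copy together, 5302 of 6582. Coding bases 130 to 190 of Pcna are shown with the same stretch of Pcna-ps2 to show how alike they are, from GENCODE vM21 transcripts, with the differing bases in capitals.
Pcna: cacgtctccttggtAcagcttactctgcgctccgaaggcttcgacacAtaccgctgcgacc
Pcna-ps2: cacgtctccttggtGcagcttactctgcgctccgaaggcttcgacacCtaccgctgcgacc
Over the 781 coding bases aligned, of the 786 of Pcna, 6 differed (99.2% identity), and the longest run without a difference was 246 bases, longer than a read of 150 bases. The sources used here do not say how reads that match both were shared out. With the copy's counts added to the gene, I/R + Dex had 435, 455 and 462 CPM and I/R had 416, 434 and 352 CPM. All I/R + Dex libraries then stood above all I/R libraries, by less than 1 CPM for the closest pair, and the log2 fold change was 0.17 with a standard error of 0.09 (95% interval -0.04 to 0.39). By mean CPM this sum stood at 450 in I/R + Dex and 401 in I/R, above Mcm6 at 338 and 369. The ranks of Mcm6 and Rfc4 as highest can therefore depend on how those reads were shared out. No other member had a copy that held 10% or more of its counts.

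**Figure D3:**
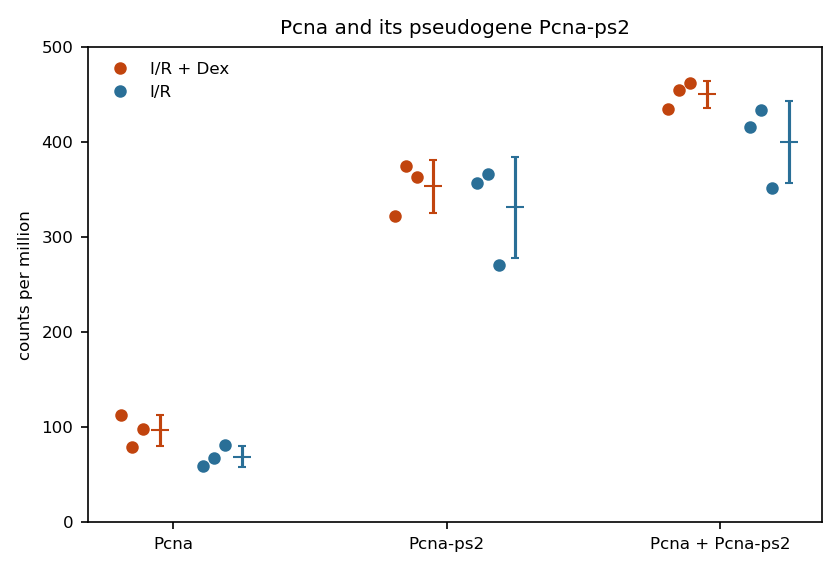
CPM of Pcna, of the pseudogene Pcna-ps2 and of their sum in each library, with the mean and SD of each group beside the points. Pcna-ps2 stands at 271 to 375 CPM, above Pcna at 59.1 to 113 CPM in every library.

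Among the genes of the clamp loader, Rfc4 and Rfc1 had even levels within the groups and Rfc2 and Rfc3 had not. Rfc4, the highest gene of this role by mean FPKM, had 57.6, 58.3 and 61.1 CPM in I/R + Dex and 56.0, 57.8 and 57.9 CPM in I/R. The groups overlapped, and the log2 fold change was 0.05 (95% interval -0.25 to 0.35). Rfc1, the large subunit, had 36.0, 34.3 and 34.7 CPM in I/R + Dex and 27.2, 33.0 and 33.0 CPM in I/R. Its I/R + Dex libraries all stood above those of I/R, with a log2 fold change of 0.18 (95% interval -0.23 to 0.59).

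Rfc5, another subunit, stood at a log2 fold change of -0.08 (95% interval -0.63 to 0.47), and its groups overlapped. Rfc2 had 29, 9 and 14 counts in I/R + Dex and 32, 0 and 0 in I/R, so that its highest library and both libraries at 0 belonged to I/R. Its log2 fold change of 0.79 (95% interval -2.78 to 4.36) was 0.20 without I/R replicate 2, and without I/R replicate 1 only libraries at 0 remain in I/R. Rfc3, the lowest gene of the role, had 3, 0 and 4 counts in I/R + Dex and 10, 0 and 0 in I/R, with the same replicate of I/R highest.

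The single-strand binding protein Rpa is made of 3 subunits, and the transcripts of Rpa1 and Rpa2 varied several-fold within a group. Rpa1, the large subunit, had 18, 95 and 5 counts in I/R + Dex and 42, 32 and 109 in I/R, and its 95% interval ran from -2.91 to 2.01. Rpa2, the lowest of the subunits, had 0, 14 and 12 counts in I/R + Dex and 11, 8 and 2 in I/R. Rpa3, the highest, had 22, 48 and 42 counts in I/R + Dex and 62, 41 and 38 in I/R, with a log2 fold change of -0.16 (95% interval -1.10 to 0.78). In each subunit the groups overlapped.

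Fen1, the nuclease that trims the flaps between lagging-strand pieces, had the highest fold change of the tested members. It had 15.5, 33.4 and 25.6 CPM in I/R + Dex and 11.1, 1.02 and 11.5 CPM in I/R, from 40, 78 and 62 counts against 29, 3 and 30. All I/R + Dex libraries stood above all I/R libraries, and I/R replicate 2 was far below the other I/R libraries. Means were 24.8 ± 9.01 CPM in I/R + Dex and 7.88 ± 5.94 CPM in I/R (SD, n = 3 each). The log2 fold change was 1.67 with a standard error of 0.74 (95% interval -0.10 to 3.45, edgeR adjusted p = 0.9999), and 1.14 without I/R replicate 2.

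The Fen1 counts lay mostly on other transcripts in I/R + Dex than in I/R. None of its transcripts reached the count filter, so edgeR did not test them. ENSMUST00000156291 had 0, 2 and 1 counts in I/R + Dex and 29, 3 and 30 in I/R, and so held all counts of the I/R libraries. ENSMUST00000025651 had 40, 0 and 27 counts in I/R + Dex and ENSMUST00000116542 had 0, 76 and 34, both with 0 in all I/R libraries. In the authors' deposited table these 3 transcripts had log2 fold changes of -4.12, 8.55 and 9.53 in that order, with adjusted p-values of 0.243, 0.665 and 0.538, and none was listed as significant. The last 2 of these fold changes are set against 0 in I/R and give no size.

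Fen1 lies on chromosome 19, 10176496 to 10181533 in GRCm39 on the minus strand, per the authors' deposited table, and shares exon bases with 2 genes of the opposite strand in the reference annotation. The first is Gm10143, with 78.8% of the exon bases of Fen1 and 0, 2 and 4 counts in I/R + Dex and 7, 4 and 2 in I/R. The second is Tmem258, which shares 130 exon bases and had 15, 76 and 33 counts in I/R + Dex and 92, 0 and 83 in I/R. The part of these neighbours in the Fen1 counts was not tested. Lig1, the ligase that seals the nicks, had 5, 0 and 10 counts in I/R + Dex and 13, 7 and 5 in I/R, under the count filter.

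Of the genes that supply nucleotides, Tyms and Rrm1 were among the 8 members with the highest mean FPKM and Rrm2 was not. Tyms, which makes thymidylate and was the highest of this role by mean FPKM, had 174, 188 and 211 CPM in I/R + Dex and 225, 213 and 172 CPM in I/R. The groups overlapped, with a log2 fold change of -0.09 (95% interval -0.39 to 0.22). Rrm1, the large subunit of ribonucleotide reductase, had 224, 261 and 228 CPM in I/R + Dex and 266, 285 and 255 CPM in I/R. By mean CPM Rrm1 stood above Tyms, at 253 against 197.

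I/R replicate 3 of Rrm1 lay below I/R + Dex replicate 2, so the groups overlapped there too. Its log2 fold change was -0.17 (95% interval -0.40 to 0.06). Rrm2, the small subunit and the lowest gene of the role, had 30.5, 33.4 and 21.9 CPM in I/R + Dex and 34.5, 32.6 and 31.8 CPM in I/R. Its log2 fold change was -0.20 (95% interval -0.70 to 0.31), with overlapping groups.

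Behind the fork, Uhrf1, which brings the maintenance methylase to new DNA, had 12, 19 and 13 counts in I/R + Dex and 17, 4 and 15 in I/R. Chaf1a, a subunit of chromatin assembly factor 1, had 9, 12 and 4 counts in I/R + Dex and 4, 8 and 14 in I/R. Chaf1b, its partner, had 0 counts in all I/R + Dex libraries and 2, 6 and 0 in I/R. Only Uhrf1 of these 3 was tested, with a log2 fold change of 0.43 (95% interval -1.09 to 1.94).

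Of the cyclins E, which drive the step into S phase, Ccne2 was well expressed and Ccne1 was near the floor. Ccne2 had 102, 86.1 and 96.7 CPM in I/R + Dex and 87.0, 112 and 92.0 CPM in I/R, with overlapping groups and a log2 fold change of -0.02 (95% interval -0.35 to 0.30). Ccne1 had 0, 4 and 2 counts in I/R + Dex and 0 in all I/R libraries. E2f1, the factor that switches on many of these genes, had 13.9, 11.6 and 8.67 CPM in I/R + Dex and 8.44, 8.84 and 10.4 CPM in I/R, with overlapping groups and a log2 fold change of 0.31 (95% interval -0.45 to 1.07).

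Some members had their counts on one transcript in one library and on another in the next. Of 129 member transcripts with a count, 30 from 26 genes were tested, and 0 had an edgeR adjusted p under 0.05 or an unadjusted p under 0.05, against 0 of 9882 tested transcripts (0.0%) and 289 (2.92%). DESeq2 on transcript counts also gave 0 member transcripts past the threshold. The edgeR test of transcripts recovered no changed transcript on simulated counts, which did not copy the switches between libraries described below. The lack of edgeR calls does not show that transcripts stayed level. The lowest p of a member transcript was 0.106, for the coding transcript of Rrm1. It had 573, 593 and 547 counts in I/R + Dex and 690, 836 and 663 in I/R. In the authors' deposited table, 0 of 57 transcripts of 37 members were listed as significant, against 104 of all 18021 (0.577%). An unadjusted p under 0.05 was listed there for 5 of the 57, from Cdc6, Fen1 and Rfc1, and the share over all transcripts was not counted. The Rfc1 transcript, ENSMUST00000203581, had 93, 0 and 84 counts in I/R + Dex and 0 in all I/R libraries. Its adjusted p was 0.422 in that table, and its fold change, set against 0 in I/R, gives no size.

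A switch was counted where a transcript held at least 90% of its gene's counts in one library and at most 10% in another, a definition chosen after the values were seen. Among genes with a mean of at least 50 counts and more than 1 counted transcript, 6 of 15 members (40.0%) had such a switch, as had 424 of 3213 genes with a coding transcript (13.2%). In all 6, Mcm5, Mcm6, Ccne2, Rfc1, Rfc4 and Rrm2, it occurred between libraries of the same group, as it did in 374 of all 3213 genes (11.6%). Mcm5 showed it most plainly. Its transcript ENSMUST00000164309 had 0, 307 and 325 counts in I/R + Dex and 244, 454 and 0 in I/R. The other, ENSMUST00000212811, had 395, 0 and 0 counts in I/R + Dex and 168, 0 and 410 in I/R.

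Each Mcm5 library but I/R replicate 1 thus held a single transcript, and the one it held did not follow the group. Ccne2 behaved in the same way between a pair of transcripts of equal length, 3006 bases. ENSMUST00000029866 had 265, 0 and 0 counts in I/R + Dex and 227, 0 and 240 in I/R, and ENSMUST00000170901 had 0, 0 and 234 in I/R + Dex and 0, 329 and 0 in I/R. In I/R + Dex replicate 2 neither had a count, and ENSMUST00000108324 held 194 of the 201 counts.

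Some members had most counts on transcripts that are not annotated as coding for the full protein. Of the Tyms counts, 67.1% lay on a transcript marked for nonsense-mediated decay, with 52, 439 and 510 counts in I/R + Dex and 253, 461 and 340 in I/R. Within I/R + Dex the share of that transcript ran from 11.6% to 100%. Of the Pcna counts, 59.1% lay on transcripts that retain an intron, the main one with 95, 151 and 127 counts in I/R + Dex and 122, 104 and 141 in I/R. On its coding transcript there were 195, 27 and 105 counts in I/R + Dex and 32, 95 and 69 in I/R, and both groups overlapped in either transcript. Over the 15 members with at least 50 counts and several counted transcripts, 86.3% of the counts lay on coding transcripts, 6.09% on transcripts with a retained intron and 7.62% on transcripts marked for decay, against 87.2%, 8.77% and 2.44% over the 3213 genes. The decay counts of these members were 2055 of Tyms and 1 of Rrm1, so their share is that of Tyms and not of the list.

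**Figure D4:**
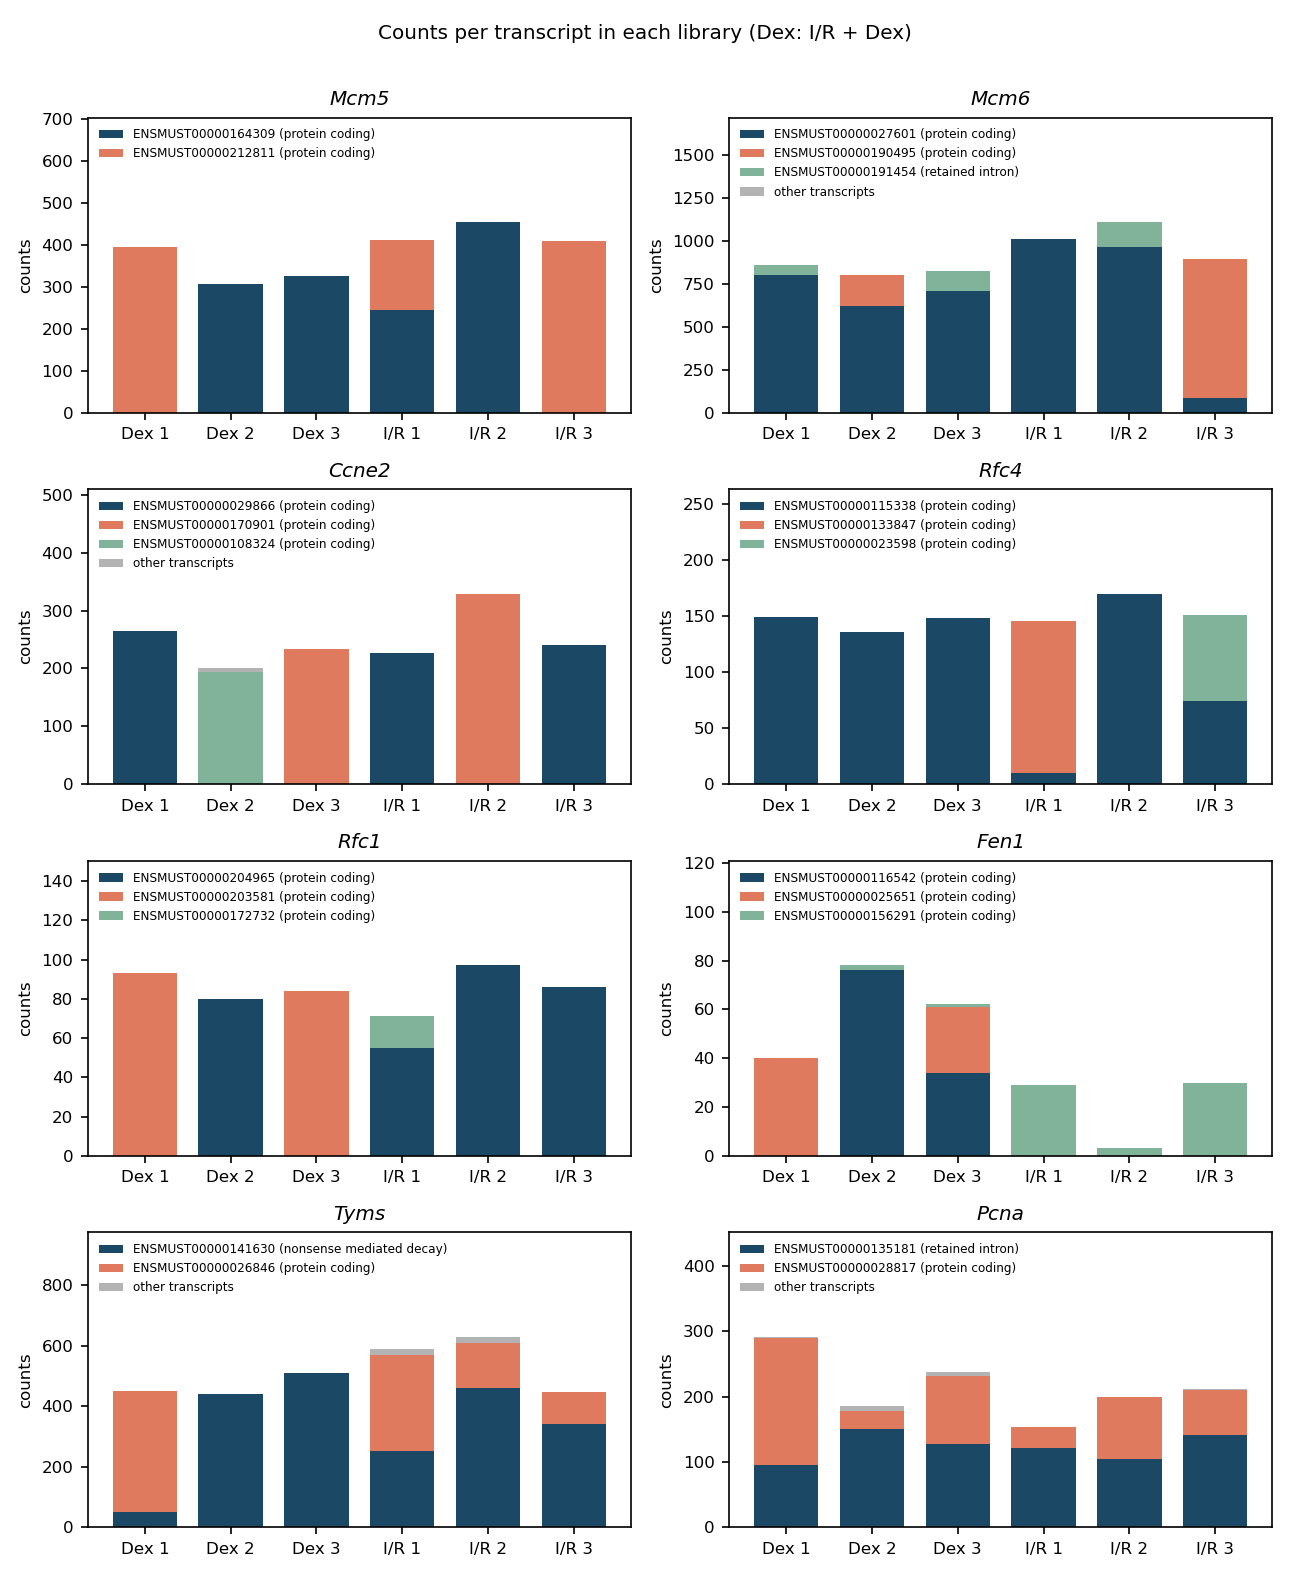
Counts per transcript in each library, I/R + Dex (Dex) left and I/R right, for 8 members, with colours for the transcripts of each gene. In all 8 genes the transcript with the most counts changes between libraries of the same group. In Fen1 the I/R libraries show a single transcript that has at most 2 counts in an I/R + Dex library.

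Other genes of the pathway, listed from general knowledge, had no call either. Of 44 further replication genes 23 were tested, and 0 passed the threshold in either direction, with 11 log2 fold changes above 0, 12 below and a median of -0.03. Their lowest p-values were those of Ssrp1, Rbbp4 and Dbf4. Of the 23, 2 had an unadjusted edgeR p under 0.05, against 3.39% of all tested genes. Groups did not overlap for 3 of the 23 (13.0%), against 9.32% of all tested genes. Ssrp1, a subunit of the histone chaperone FACT, had 518, 480 and 431 CPM in I/R + Dex and 561, 581 and 552 CPM in I/R, with groups that did not overlap and a log2 fold change of -0.24 (95% interval -0.43 to -0.05, edgeR adjusted p = 0.9999).

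Rbbp4, which binds histones and is a subunit of chromatin assembly factor 1, had 411, 384 and 373 CPM in I/R + Dex and 440, 420 and 456 CPM in I/R, a log2 fold change of -0.17. Dbf4, the activating partner of the kinase Cdc7, had 3.09, 2.57 and 3.30 CPM in I/R + Dex and 8.05, 7.48 and 4.22 CPM in I/R, a log2 fold change of -1.12 (95% interval -2.28 to 0.04). All I/R + Dex libraries of both genes stood below all I/R libraries.

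Of 36 further regulators of the step from G1 to S, 27 were tested and 0 passed in either direction, with 17 log2 fold changes above 0, 10 below and a median of 0.08. Of the 27, 1 had an unadjusted edgeR p under 0.05, against 3.39% of all tested genes. Groups did not overlap for 2 of the 27 (7.41%), against 9.32% of all tested genes. Ccna2, the cyclin of S phase and later, had 104, 87.9 and 110 CPM in I/R + Dex and 131, 133 and 126 CPM in I/R. Its groups did not overlap, and the log2 fold change was -0.37 (95% interval -0.63 to -0.10, edgeR adjusted p = 0.9999). E2f5, a repressing E2F, had 17.4, 15.4 and 14.1 CPM in I/R + Dex and 10.4, 13.3 and 8.82 CPM in I/R, a log2 fold change of 0.53, also without overlap. Rbl1, the retinoblastoma relative p107, had 41.4, 39.0 and 30.6 CPM in I/R + Dex and 27.6, 30.9 and 29.9 CPM in I/R, a log2 fold change of 0.33, and its groups overlapped.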

How the data were processed

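Paired-end reads of 150 bases from 3 I/R + Dex and 3 I/R libraries had been counted by the authors. Gene and transcript counts were deposited as whole numbers, not normalised, and the deposited FPKM are those of the authors, with the gene length behind them not stated. The authors' deposited table holds, per the file headers, for each transcript a log2 fold change with I/R + Dex on top, its p-value and the p-value after adjustment. The submitters' processing notes name HISAT2 2.1.0, StringTie 2.2.4, DESeq2 1.30 and GRCm39 without their roles, and do not give the counting step or its use of strand. Replicates were biological and of the same batch, per the labels.

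Gene counts were tested with edgeR 4.0.16 (R 4.3.3) after filterByExpr and TMM scaling, by its quasi-likelihood test in the robust form. The fit held all genes, p-values were adjusted over all of them after Benjamini and Hochberg, and 0.05 was the threshold. The fit of transcript counts was built likewise. Standard errors came from the F statistic and 95% intervals from the t quantile. CPM used the library totals. On simulated counts the gene test recovered part of the changed genes and the transcript test none of the changed transcripts. Floors cover counting error only. Of gene counts from 1 to 20, 56.0% were even, against 48.3% of such transcript counts. Near-identical copies were found with blastn 2.17.0 among GENCODE vM21 transcripts (90% identity over at least 200 bases and 50% of a coding transcript). That annotation is on another build than the files, so it gave names, neighbours and sequences only. The members and lists were chosen with earlier results of these data known. Genes named are all members, the 3 tested genes with the lowest p of each further list, and copies with at least 10% of the counts of a member and its copies. Overlaps, switches and promoter letters were described after values were seen. Alternatives were edgeR scaled by DESeq2 size factors, edgeR unfiltered or limited to 1 CPM in at least 3 libraries, DESeq2 1.42.0, limma 3.58.1 (voom, and trend on log2 of FPKM plus 1 or 0.1 for a mean of at least 1 FPKM), copies added, the replicate number as a block, and each library left out.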

Additional observations from a re-analysis of the deposited data

How the results depend on the processing

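No member and no member transcript passed the threshold under any alternative run. The median log2 fold change of tested members moved by less than the spread between libraries, from -0.07 to 0.06 over all alternatives. Over all genes, 5 in edgeR, the count past the threshold was 17 in DESeq2, 0 in limma voom, 8 with limma trend for log2(FPKM + 1), 3 with limma trend for log2(FPKM + 0.1), and 0 to 4 when 1 library was left out, with 0 without I/R replicate 2. Over all transcripts, 0 in edgeR, it was 12 without a filter, 73 in DESeq2 and 0 to 3 when 1 library was left out. With the replicate number as a block edgeR called 0 genes and 0 transcripts. Same-numbered libraries deviated with correlations of 0.02, -0.01 and -0.00, so no deviation shared by number was seen. That does not settle whether same-numbered cultures were run as pairs.

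Of 410 alternative log2 fold changes of the 29 tested members, 378 kept their sign and side of the threshold and 32, from 15 members, had the opposite sign; the cause was not tested. With a library left out these ranged over -0.20 to 0.12 for Mcm2, -1.28 to 0.29 for Mcm4, -0.27 to 0.48 for Mcm7, -0.57 to 0.14 for Orc2, -1.61 to 1.98 for Cdc45, -0.84 to 0.37 for Gins2, -0.53 to 0.57 for Gins4, -0.12 to 0.11 for Pola1, -0.0882 to 0.38 for Pold1, -0.31 to 0.0715 for Rfc5, -2.33 to 0.31 for Rpa1, -0.0637 to 1.09 for Rpa2, -0.43 to 0.14 for Rpa3, -0.0073 to 0.78 for Uhrf1 and -0.10 to 0.10 for Ccne2. In limma voom Mcm7 was -0.0087, Cdc45 -0.86, Gins2 -0.19 and Rpa2 -0.48. On log2(FPKM + 0.1) Cdc45 was -0.49, Gins2 -0.25 and Rpa2 -0.17, and Gins2 was -0.12 on log2(FPKM + 1) and -0.24 with the replicate block. Without a change of sign, Mcm4 moved to -2.18 in limma voom, -2.16 on log2(FPKM + 0.1), -1.09 on log2(FPKM + 1) and -1.02 with the block. Rfc2 moved to 3.20 in voom and 2.39 with the block, and to between 0.20 and 7.17 with a library left out, where the highest value is set against I/R libraries at 0 and gives no size. In voom Gins4 was 1.44, Fen1 2.26 and Rpa1 -1.20. With a library left out Prim1 ranged over 0.10 to 0.47, E2f1 over 0.15 to 0.48 and Rrm2 over -0.34 to -0.035. At this depth 14 members stayed under the count filter. There were 17 members at 0 in at least 1 library, some of them beside high counts in others, and the cause was not tested.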
